A study of Mus musculus with 19 samples.

Results

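Pax3, Tfap2b and Gbx2 are transcription factors of the early neural crest, and their RNA was followed here from the crest stage to the newborn nerve. They were taken as every probe set whose array annotation gives one of these symbols. That gave 1 probe set for each (100697_at for Pax3, 92903_at for Tfap2b and 94200_at for Gbx2), so 3 of 8251 genes with a probe set of a single symbol. No second probe set was there to check any of them. All 3 were among the 10414 probe sets tested.

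The cells were green fluorescent cells sorted from mice that carry a green fluorescent protein transgene under a glial promoter named in the labels. Every group carries this transgene, and a cell enters a sample through it, so crest cells that do not use the promoter are outside these data. The E9.5 group (embryonic day 9.5, n = 3) was sorted from the trunk and is labelled as neural crest stem cells. The nerve groups were sorted from sciatic nerve and are labelled as Schwann cell precursors at E12 (n = 3), Schwann cells at E14 (n = 3), early Schwann cells at E16 (n = 4), and Schwann cells at E18 (n = 3) and at P0, the day of birth (n = 3). No strain is given in the sources used here, and no group received a treatment. Stage and body region change together between E9.5 and E12, so their effects cannot be told apart. In sorted cells measured in bulk, fewer cells that use a gene and less RNA per cell cannot be told apart either. Of 8 glial lineage markers tested, 4 rose at E12 and 0 fell, against 9.7% of all probe sets higher and 4.41% lower. Gfra3, a glial cell line-derived factor family receptor, rose 10.9-fold, Fabp7, a fatty acid binding protein of early glia, 3.16-fold, and Gap43, a growth-associated membrane protein, 2.67-fold. Erbb3, the neuregulin receptor of the lineage, went from 1772 ± 246 to 3630 ± 509, a call lost without E12 replicate 2 or 4 or E9.5 replicate 1 or 3 (limma adjusted p 0.0689 to 0.0829). Among those not called, Sox10 and Mbp read higher at E12 and Pmp22 lower (374 ± 44.0 to 232 ± 86.6, limma adjusted p = 0.0607). S100b was under the floor on every E9.5 and E12 array. Gap43 is also among the neuron markers read below. The ratio of the 3' to the 5' GAPDH control signal, a measure of how much of each RNA is copied, was 2.33 to 3.41 at E9.5 and 3.18 to 9.12 over the nerve arrays.

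Neural crest cells arise at the border of the neural plate, leave the dorsal neural tube and give rise to peripheral neurons, glia and pigment cells. Pax3 encodes a paired-box and homeodomain factor of the dorsal neural tube, crest and somites, and mice without it have reduced crest derivatives. Tfap2b encodes AP-2 beta, a factor of the AP-2 family that binds GC-rich sites and acts in crest and its sympathetic derivatives. Gbx2 encodes a homeodomain factor best known for placing the boundary between midbrain and hindbrain, and it also acts early in crest induction.

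All 3 genes lie on mouse chromosome 1. The RefSeq promoter table (GRCm38.p6) held an entry for Tfap2b and Gbx2, so 2 of the 3 matched. The 250 bases before each listed start are shown because both genes were lost in the same interval, and the sequences allow their base content to be compared. The Tfap2b window is chr1:19211804-19212053 on the plus strand and the Gbx2 window is chr1:89931177-89931426 on the minus strand. The RefSeq record of Tfap2b begins before its window, so the listed start is not the first of that gene. Capitals mark TAAT on either strand (ATTA when read on the other), the core that many homeodomain proteins bind.
Tfap2b: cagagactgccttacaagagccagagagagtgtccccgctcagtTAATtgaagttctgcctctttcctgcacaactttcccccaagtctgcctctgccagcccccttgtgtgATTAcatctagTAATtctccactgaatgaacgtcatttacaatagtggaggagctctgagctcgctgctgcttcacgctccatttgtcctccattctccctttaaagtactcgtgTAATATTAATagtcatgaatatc
Gbx2: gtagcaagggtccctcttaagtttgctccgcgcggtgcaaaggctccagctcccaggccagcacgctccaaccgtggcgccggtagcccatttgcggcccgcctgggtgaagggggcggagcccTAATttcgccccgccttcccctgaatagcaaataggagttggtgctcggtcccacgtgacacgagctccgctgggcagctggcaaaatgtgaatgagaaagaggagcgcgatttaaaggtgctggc
The Tfap2b window held 6 TAAT matches on both strands together, some of which overlap, and the Gbx2 window held 1. Of 32851 windows of this length, 54.9% held at least 1 match and 3.26% held 6 or more. CANNTG, the E-box core bound by Snail and basic helix-loop-helix proteins, occurred once in the Tfap2b window and at 3 places in the Gbx2 window, and 66.2% of all windows held it. GCCNNNGGC, the palindromic AP-2 core, had no match in either window and was found in 13.7% of all. The Tfap2b window was 46.4% G or C with 5 CpG dinucleotides, and the Gbx2 window 61.6% with 18, against medians of 52.4% and 6 over all windows. The motifs were picked after the windows had been read, and a match is a description, not a binding site.

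Pax3 fell sharply between the trunk crest and the E12 nerve and then stayed low but measurable. The values are expression indices, in units of array intensity on a linear scale, and 68.5, the 25th percentile of all values, served as a floor below which levels have no order. At E9.5 the 3 arrays read 1145, 1053 and 1087, a mean of 1095 ± 46.3 (SD, n = 3). At E12 they read 189, 210 and 192 (197 ± 11.7, SD, n = 3), so 18.0% of the E9.5 mean was left. The lowest E9.5 array stood 5.01 times above the highest of the 16 nerve arrays. The groups did not overlap, a pattern that 6.33% of all probe sets showed. The fitted change was -2.48 on the log2 scale (SE 0.28), a 5.57-fold fall, the 12th largest of 10414 on floored values. The fall of each gene between these stages was known when the genes were picked, so these changes are given without a test. Over all probe sets, 14.1% were called in this comparison with limma after Benjamini-Hochberg adjustment at 0.05.

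Within the nerve, Pax3 was above the floor on 15 of 16 arrays. The E14 arrays read 123, 206 and 115, so 1 array remained at the E12 level and the others were lower. At E16 the 4 arrays read 137, 116, 107 and 116, close together at 10.9% of the E9.5 mean. At E18 they read 75.5, 65.0 and 156.5, which is the widest spread relative to the mean of any stage for this gene, with 1 array under the floor. At P0 they read 138, 82.8 and 137, again 10.9% of the E9.5 mean. The highest nerve level, on an E12 array, was 3.07 times the floor.

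The data did not settle whether Pax3 kept falling after E12. From E12 to P0 the log2 change was -0.76 (SE 0.28, adjusted p = 0.0798 in limma), where 16.4% of all probe sets were called. The P0 arrays read 82.8 to 138 and the E12 arrays 189 to 210. How many of all probe sets separate these stages in this way was not counted. The moderated F-test over the 5 nerve stages gave an adjusted p of 0.096 in limma, where 13.1% of probe sets were called. That value fell to 0.00864 without E18 replicate 3, the array at 156.5. The limma adjusted p was 5.94e-05 with arrays weighted by their quality, a setting in which 5298 of 10414 probe sets were called. No single step between neighbouring stages was called: -0.46 from E12 to E14 (SE 0.28, limma adjusted p = 0.62), -0.27 from E14 to E16 (SE 0.26, limma adjusted p = 0.748), -0.35 from E16 to E18 (SE 0.26, limma adjusted p = 0.764) and 0.32 from E18 to P0 (SE 0.28, limma adjusted p = 0.701). These steps called 2.09%, 1.69%, 0.0768% and 0.125% of all probe sets. Within lot batches as the labels number them, the E12 to P0 change of Pax3 was -0.45 in lot 1 and -0.48 in lot 4, with 1 array on each side. The E16 to E18 change was -0.74 in lot 1 and 0.55 in lot 3, so the late steps ran in opposite directions.

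**Figure D1:**
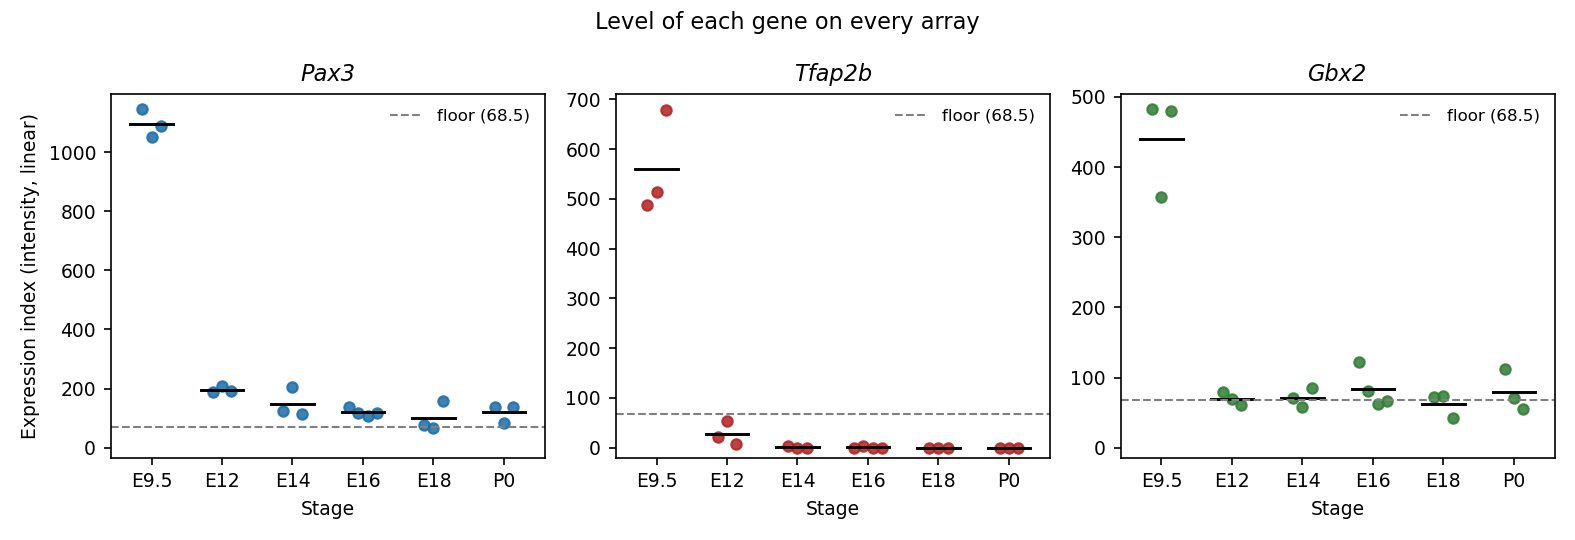
Expression index (array intensity, linear axis) of Pax3, Tfap2b and Gbx2 on each of the 19 arrays, by stage. Points are arrays, black bars are stage means, and the dashed line is the floor of 68.5; each gene drops after E9.5, with Tfap2b under the floor on all 16 nerve arrays, Pax3 above it on 15 and Gbx2 scattered around it.

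Tfap2b was under the floor on every nerve array. At E9.5 it read 488, 514 and 678 (560 ± 103, SD, n = 3). At E12 it read 21.6, 52.9 and 6.72, all under the floor, so at most 12.2% of the E9.5 mean was left. At E14 the arrays read 2.96, 0 and 0.404. At E16 they read 0, 3.32, 0 and 0, and all E18 and P0 arrays were listed at 0. In all, 16 of 16 nerve arrays were at or under the floor and 10 were listed at exactly 0, a value the table gives 2363 times. A listed 0 can be a failed estimate as well as a low level.

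With every E12 array at the floor, the fall of Tfap2b from E9.5 to E12 was at least 8.09-fold (-3.02 on the log2 scale, SE 0.12). On floored values that fall was the 3rd largest of 10414, a place set by the floor and the E9.5 level. Tfap2b passed the filter on low values through its 3 E9.5 arrays alone, so it had to differ. Its small spread on the log2 scale is that of the floor. The lowest E9.5 array was 7.12 times the floor. The nerve stages could not be told apart on this scale, with all 16 arrays set to the same value. On log2(value + 32), without a floor, the F-test over the nerve stages gave a limma adjusted p of 0.0296, and P0 was lower than E12 by a log2 change of -0.81 (limma adjusted p = 0.0111), a difference among levels under the floor. Of 3565 probe sets above 5 times the floor on all 3 E9.5 arrays, 2 were at or under it on all 16 nerve arrays: Tfap2b and Fgfr2, a fibroblast growth factor receptor (685 ± 191 at E9.5 and 18.7 ± 5.71 at E12). The factor of 5 was picked after the levels had been seen.

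Gbx2 went to the floor by E12 and stayed around it. Its E9.5 arrays read 483, 357 and 480 (440 ± 71.8, SD, n = 3). At E12 they read 79.5, 68.8 and 60.8 (69.7 ± 9.38, SD, n = 3), or 15.8% of the E9.5 mean, where the floor itself is 15.6%. The fall was at least 6.04-fold (-2.60 on the log2 scale, SE 0.22), the 8th largest on floored values, with 1 E12 array under the floor. The groups did not overlap, and the lowest E9.5 array was 2.92 times the highest nerve array. Over all probe sets, 6.33% had every E9.5 array above every nerve array, a pattern that was part of what drew attention to these genes.

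After E12 the Gbx2 arrays straddled the floor. They read 70.5, 58.4 and 84.5 at E14, then 122, 80.6, 62.2 and 67.1 at E16. At E18 they read 72.3, 73.2 and 41.9, and at P0 112, 71.1 and 55.6. Of the 16 nerve arrays, 6 were at or under the floor, and the highest, E16 replicate 1, was 1.79 times it. That array and the next highest, P0 replicate 1, are both of lot 1. Zic1, a factor of the plate border, read 1679, 1763 and 2074 on E16 replicates 1 and 2 and P0 replicate 1. It read 146 to 434 on the other nerve arrays. Why these arrays differ was not tested. For Gbx2, the F-test over the nerve stages gave a limma adjusted p of 0.869. From E12 to P0 the log2 change was 0.18 (SE 0.22, limma adjusted p = 0.648), and its sign turned without P0 replicate 1, the array at 112 (-0.047). The percentages left at E14 to P0, 14.2 to 18.9, are therefore about what the floor gives and set only an upper range for Gbx2.

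At E12 the share left was 18.0% ± 1.06 for Pax3 (SD of 3 arrays against the E9.5 mean, leaving out the spread of that mean). For Tfap2b it was at most 12.2%, the share the floor allows, and for Gbx2 it was 15.8% ± 2.13, around the floor. The floor equals 6.26% of the E9.5 mean of Pax3, 12.2% of that of Tfap2b and 15.6% of that of Gbx2. Pax3 was therefore resolved above the floor at E12 on all 3 arrays, whereas Tfap2b and Gbx2 had reached it. No array lies between E9.5 and E12, so the order in which the genes fell inside that interval was not measured. The change within lot batches 1 and 2, each with 1 array a stage, was -2.60 and -2.33 for Pax3, -2.83 and -2.91 for Tfap2b, and -2.60 and -2.37 for Gbx2 on the log2 scale.

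**Figure D2:**
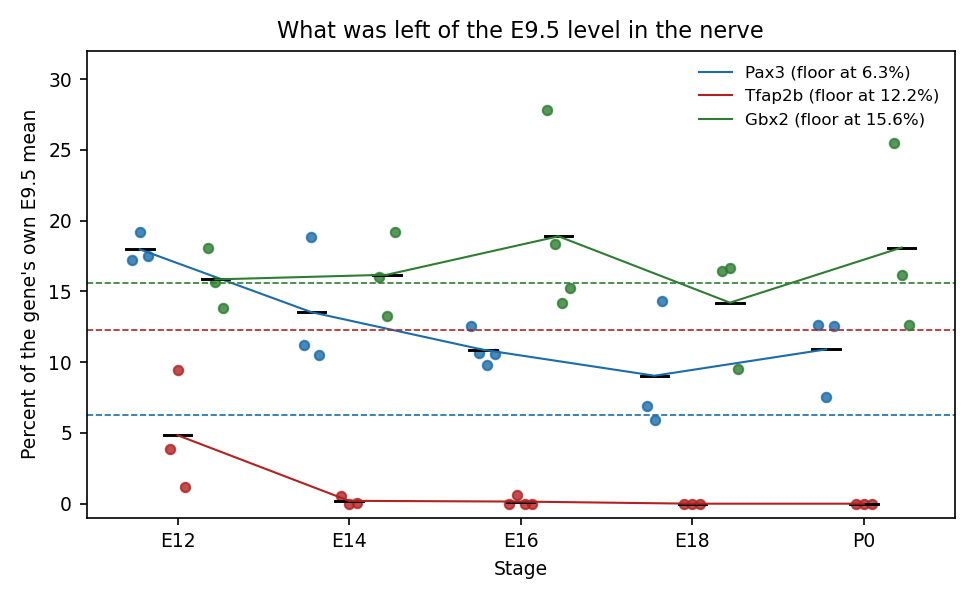
Level at each nerve stage as percent of the same gene's E9.5 mean (linear axis); points are arrays, black bars are stage means and dashed lines mark the floor as percent of each gene's own E9.5 mean. Pax3 lies above its floor line at 6.26% on 15 of 16 arrays, Gbx2 lies around its line at 15.6%, and Tfap2b lies under its line at 12.2% on all 16 arrays, where levels have no order.

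The AP-2 relatives of Tfap2b were still measured at E12. Tfap2c, AP-2 gamma, fell 2.45-fold from 392 ± 50.4 at E9.5 to 163 ± 46.0 at E12 (log2 change -1.29, SE 0.22, limma adjusted p = 5.82e-04). It went on to 93.6 ± 18.4 at P0, 23.9% of its E9.5 mean, and its F-test over the nerve stages gave a limma adjusted p of 0.0172. That call was lost without E12 replicate 2 (limma adjusted p = 0.117), with the floor at the 40th percentile (0.418) and after quantile normalization (0.0533). Tfap2a, AP-2 alpha, is read by a pair of probe sets. The brighter one read 823, 926 and 880 at E9.5 and 950, 1230 and 1321 at E12, a log2 change of 0.40 (SE 0.20, limma adjusted p = 0.237). It then fell by P0 to 421, 605 and 581 (log2 change from E12 -1.13, SE 0.20, limma adjusted p = 0.00111). The dimmer one changed by -0.32 on the log2 scale from E9.5 to E12 (SE 0.28, limma adjusted p = 0.549), and by P0 all its arrays were under the floor, so its fall from E12 was at least 4.07-fold (limma adjusted p = 1.01e-04). Both Tfap2a probe sets fell after E12, but they disagree on how much was left at P0: 61.1% of the E9.5 mean for the brighter one and at most 19.4%, the share the floor allows, for the dimmer one.

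**Figure D3:**
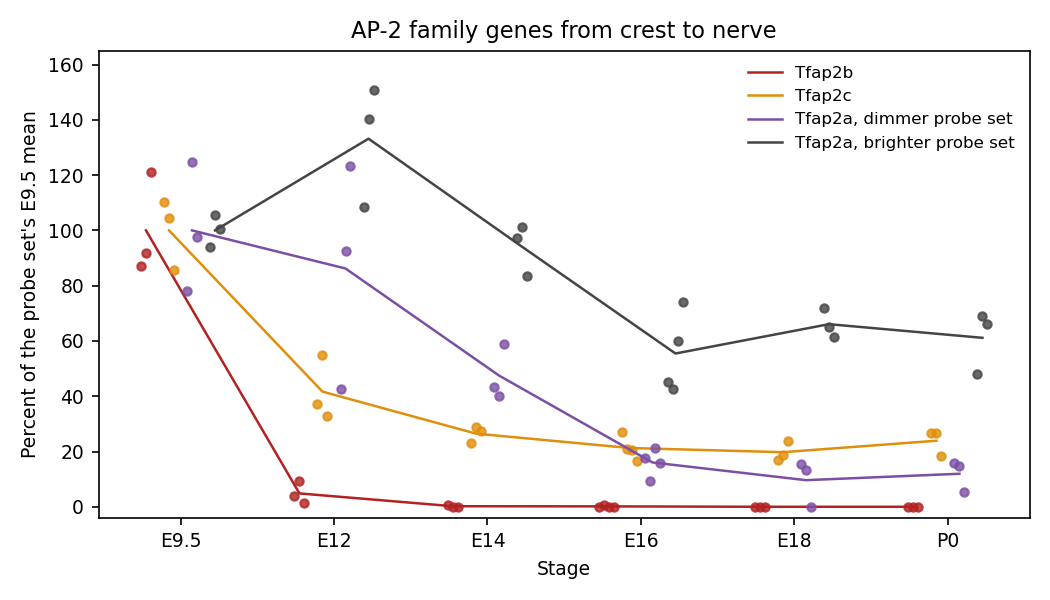
Percent of each probe set's own E9.5 mean, by stage, for the AP-2 family genes Tfap2b, Tfap2c and Tfap2a (a pair of probe sets); points are arrays and lines join stage means. At E12 Tfap2b was under the floor, which is 12.2% of its E9.5 mean, Tfap2c was at 41.7%, and the Tfap2a probe sets were at 86.2% and 133%. At P0 the brighter Tfap2a probe set was at 61.1% and the dimmer one under the floor, 19.4% of its E9.5 mean.

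Of 7 Pax and AP-2 relatives tested, with 1 probe set each, Tfap2c fell and 6 were not called, where 4.41% of all probe sets were lower, and the median log2 change was 0.05 against 0.01 over all probe sets tested. Pax6 and Pax9 were too low to test. Among genes that act with Gbx2 at the boundary between midbrain and hindbrain, 1 of 7 fell, against the same 4.41%: Wnt1, a ligand of the dorsal neural tube and early crest. Wnt1 read 200, 249 and 181 at E9.5 and 79.9, 97.4 and 66.2 at E12, at least 2.57-fold lower (limma adjusted p = 5.62e-05). En1 and En2, homeodomain factors of that boundary, were not called, and Fgf8 and Fgf17, its secreted signals, were too low to test.

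Other transcription factors of the neural plate border and crest were mostly not called. Of 27 listed, 20 were on the array and 19 were tested. At E12, 4 had fallen (Tfap2c, Twist1, Mycn and Msx1), 1 had risen (Id3) and 14 were not called, against 4.41% lower and 9.7% higher over all probe sets. Their median log2 change was 0.07. Twist1, a basic helix-loop-helix factor of migrating crest and mesenchyme, went from 158 ± 49.9 to 48.5 ± 22.2, with 2 E12 arrays at the floor, at least 2.20-fold lower (limma adjusted p = 2.66e-04). Mycn, a regulator of growth, went from 1114 ± 179 to 288 ± 97.4 (log2 change -1.99, SE 0.53, limma adjusted p = 0.0187). Its call was lost without E9.5 replicate 2 or 3 or E12 replicate 1 or 2 (limma adjusted p 0.0588 to 0.0746), and with the floor at the 10th percentile (0.0719). Msx1, a homeodomain factor of the plate border, went from 488 ± 58.9 to 318 ± 34.7 (limma adjusted p = 0.0388), and that call was lost without any E9.5 array or E12 replicate 1 or 2 (limma adjusted p 0.0601 to 0.149). It was also lost with the GAPDH ratio as a covariate (limma adjusted p = 0.143), the replicate number as a block (0.0544) and the floor at the 10th percentile (0.0514). The number that fell was 2 to 4 when single arrays were left out.

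The factors that mark crest and its glia were not called in the same comparison. Sox10 went from 1381 ± 485 to 2263 ± 406, Foxd3 from 198 ± 48.8 to 324 ± 79.6, and Snai1 from 430 ± 31.9 to 486 ± 64.3. Snai2 went down, from 538 ± 21.1 (arrays at 522, 530 and 562) to 433 ± 18.5 (449, 413 and 437). Their limma adjusted p-values were 0.36, 0.475, 0.601 and 0.295. Id3, an inhibitor of basic helix-loop-helix factors, rose 2.50-fold at E12 (limma adjusted p = 2.58e-04) and by E16 was at 16.8% of its E9.5 mean.

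**Figure D4:**
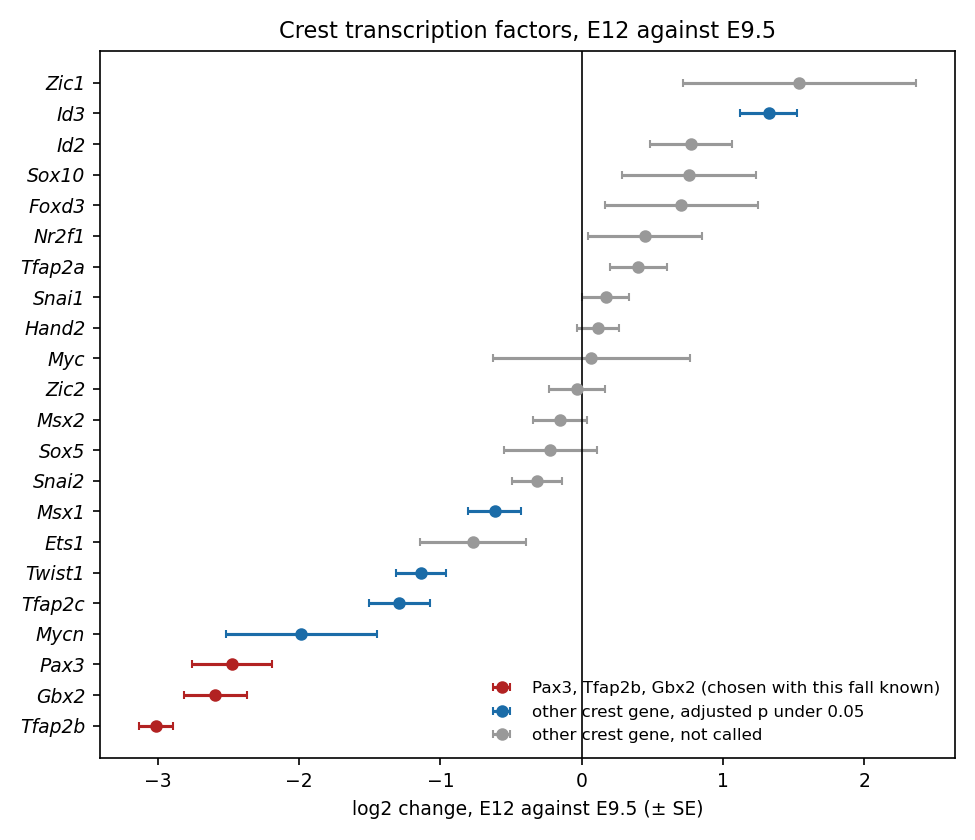
Fitted log2 change from E9.5 to E12 with its SE for Pax3, Tfap2b, Gbx2 (red) and 19 other crest transcription factors (blue where the limma adjusted p was under 0.05, grey where not). The red points, at -2.48, -3.02 and -2.60, were picked with this fall known, and the changes of Tfap2b, Gbx2 and Twist1 are lower bounds in size because E12 arrays were at the floor.

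Genes described as targets of Pax3 or AP-2 factors were mostly not called. Of 15 tested, 2 fell, 1 rose and 12 were not called, against 4.41% lower and 9.7% higher over all probe sets. Ednrb, the endothelin receptor of crest and melanoblasts, read 376, 324 and 682 at E9.5 and 4384, 4688 and 6084 at E12, an 11.5-fold rise (log2 change 3.52, SE 0.40, limma adjusted p = 1.22e-05). Kit, the stem cell factor receptor, fell from 199 ± 28.9 to 90.0 ± 23.7 (limma adjusted p = 0.034), and Hoxa2 fell from 298 ± 7.34 to 195 ± 43.3 (limma adjusted p = 0.0394). Both calls were lost without any 1 of the E9.5 arrays or E12 replicate 1, that of Kit also without E12 replicate 4 and that of Hoxa2 without E12 replicate 2 (limma adjusted p 0.0596 to 0.219). Kit was also lost with the GAPDH ratio as a covariate (limma adjusted p = 0.142), the floor at the 40th percentile (0.212) and no filter (0.0619). Hoxa2 was also lost with lot (limma adjusted p = 0.0994) or the replicate number (0.0945) as a block and the floor at the 10th percentile (0.0514). Mitf, a melanocyte factor that Pax3 is known to activate, was under the floor on every E9.5 and E12 array. Of 16 factors of the later Schwann lineage, 7 rose at E12 and 0 fell, where 9.7% of all probe sets were higher and 4.41% lower, among them Id4 (6.10-fold), Egr1 (5.11-fold), Jun (3.32-fold) and Nab1 (3.14-fold). The call of Egr1 was lost without E12 replicate 1 (limma adjusted p = 0.0545) or E9.5 replicate 3 (limma adjusted p = 0.055). That of Sox2, also among the 7, was lost without any E12 array or E9.5 replicate 2 or 3 (limma adjusted p 0.055 to 0.169). Sox2 is also among the neural tube markers read below.

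Because Pax3, Tfap2b and Gbx2 are also used outside the crest, markers of other cells were read on the same arrays, and their counts stand against 4.41% lower and 9.7% higher over all probe sets. Neural tube markers fell in 0 of 9 tested and rose in 1 (Sox2, limma adjusted p = 0.0366, 1731 ± 515 to 3117 ± 302), with a summed level of 4328 to 4741 at E9.5 and 5753 to 6576 at E12, and 2 of the 12 on the array at or under the floor on all E9.5 arrays. The Sox2 call was lost without any E12 array or E9.5 replicate 2 or 3, with lot (limma adjusted p = 0.0677) or the replicate number (0.0676) as a block and with no filter (0.0582), and Sox2 is part of that sum. Pax6 was too low to test. Somite and mesoderm markers fell in 1 of 10 (Dll1, 535 ± 69.6 to 299 ± 30.0, lost without E9.5 replicate 2 or E12 replicate 1). Their sum was 2074 to 2867 at E9.5 and 1985 to 2032 at E12. Of the 15 on the array, 5 were at or under the floor on all E9.5 arrays, Myf5 and Pax9 being too low to test. Meox1, not called, spread widely at E9.5 (271 ± 231, against 149 ± 2.37 at E12, limma adjusted p = 0.523). Foxc2, Myf6, Myog and Tbx6 read higher at E12. Of 12 neuron markers tested, 1 rose (Gap43) and 1 was called lower, Neurog2, a proneural factor that passed the filter through its 3 E9.5 arrays alone and so had to differ. None of the other 10 was called on its brightest probe set, but not all of them stayed level. Neurod1 read 232 ± 34.9 at E9.5 and 90.4 ± 8.06 at E12 (limma adjusted p = 0.195). Tubb3 read 1162 ± 168 and 722 ± 82.1 (limma adjusted p = 0.17), whereas Stmn2, Prph, Ret and Hand2 read higher at E12. The sum was 3181 to 3435 at E9.5 and 2864 to 3276 at E12, with 3 of 14 at or under the floor on all E9.5 arrays. Neurog1, another proneural factor, went from 269 ± 45.7 to 240 ± 14.4 on its brightest probe set. Its dimmer probe set was called lower, from 113 ± 32.8 to 16.1 ± 1.19, with all E12 arrays under the floor (limma adjusted p = 0.014). Melanocyte markers fell in 1 of 6 (Kit), with a sum of 1822 to 2211 at E9.5 and 2011 to 2429 at E12, and 2 of 7 at or under the floor on all E9.5 arrays. Fibroblast and endothelial markers fell in 1 of 11 (Emcn) and rose in 2 (Col3a1, 21.7-fold, and Col1a2, 5.20-fold), with a sum of 1745 to 2240 at E9.5 and 6492 to 7227 at E12, and 4 of 12 at or under the floor on all E9.5 arrays. The part of other cells in the fall of Pax3, Tfap2b and Gbx2 was not tested.

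Of the 2 nearest measured genes on each side of them, 12 in all, 1 was called between E9.5 and E12, a share near the 14.1% of all probe sets: Farsb next to Pax3, a tRNA synthetase subunit (log2 change -1.08, SE 0.35, limma adjusted p = 0.0492). Epha4 and Slc4a3 on the other side of Pax3, Eloc and Il17a beside Tfap2b, and Agap1 and Cops8 beside Gbx2 were among the 11 not called. The log2 changes of those 11 ran from -0.67 for Ackr3 to 0.72 for Agap1.

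Across the 19 arrays the 3 genes followed one another, since each is high on the same 3 arrays. Pearson's r of floored log2 values was 0.93 for Pax3 with Tfap2b, 0.90 for Pax3 with Gbx2 and 0.97 for Tfap2b with Gbx2, and these describe the step after E9.5 and little else. The probe sets most like Pax3 by this measure were Igdcc3 (0.95), a receptor-like surface protein that went from 2620 ± 600 to 325 ± 54.9, then Krt17, Prom1, Riox2 and Zbtb16 (0.94 to 0.95). Most like Tfap2b were Exo1 (1.00), Prps2, Plcg2, Saa2 and Frzb (0.99). Exo1, Plcg2, Saa2 and Frzb were, like Tfap2b, under the floor on every nerve array, so their r with it had to be high. Plcg2, a phospholipase, went from 514 ± 177 to 39.8 ± 15.1, whereas Saa2 (80.1 at E9.5) and Prps2 (123) were never far above the floor. Most like Gbx2 were Exo1 (0.97), Saa2, Krt17, Fgfr2 and Prom1 (0.95 to 0.96).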

How the data were processed

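RNA of sorted cells was amplified by a pair of in vitro transcription rounds and hybridized to Affymetrix mouse arrays, 19 in all, per the labels. The deposited values are intensity on a linear scale. The authors used dChip, per the labels, for smoothing spline normalization and for a model-based expression index per probe set, with probe sensitivities from 18 arrays. No dChip version is named in the labels. The array protocol is missing from the labels of E9.5 replicates 2 and 3. The median level was 174 to 207 per array, with 22.6% to 27.3% of values at the floor. The number of arrays per stage limits the precision.

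Probe sets were named through the array annotation (10833 with 1 symbol, 396 with several, 1193 with none, 66 controls left out). Values under the 25th percentile, 68.5, were set to it before log2, and probe sets above it on at least 3 arrays were kept. A fold whose lower stage held arrays at the floor is written "at least". All arrays were fitted together, with 1 coefficient for each stage (limma 3.58.1, R 4.3.3, 13 residual degrees of freedom). The fit was run on simulated data with changes planted only in brighter probe sets, so changes between levels near the floor were not tried there. P-values are 2-sided and adjusted over the 10414 probe sets of a comparison. Whether replicate arrays stand for different animals is not in the labels, so a p-value here covers the spread between arrays, which may be technical.

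The genes and all lists were chosen with earlier results of these data known. From each list, up to 4 genes called between E9.5 and E12 were named by size of change; where none passed, the brightest. Other list genes named for their role (Msx1, Tfap2a, Sox10, Foxd3, Snai1, Snai2, Mitf, En1, En2) and Fgfr2 were chosen after their values were seen. The same holds for Zic1, Neurog1, Neurod1, Tubb3, Stmn2, Prph, Ret, Hand2, Meox1, Foxc2, Myf6, Myog, Tbx6, Mbp, Pmp22 and S100b. A gene with several probe sets is represented in lists by the brightest. Likeness is Pearson's r with every other probe set of a single symbol. Alternatives varied the floor, the filter, the normalization, blocks, weights and the arrays. Promoter sequence is from RefSeq.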

Additional observations from a re-analysis of the deposited data

Results flagged for a closer look

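Dixon's test at the 95% level was applied to the 4 E16 arrays and not to stages of 3. There, 5 of 22 probe sets looked at had 1 array far from the others, where chance gives about 1 in 20. That rate is for independent, normally spread values, which these were not in every case. For Tfap2b, E16 replicate 2 read 3.32 and the other arrays 0, all far under the floor. With the others tied, any value above 0 would have been flagged. Both Sox10 probe sets were high on E16 replicate 4, at 406 (the next array 180) and 2990 (the next 1028), so these flags share a gene and an array. Snai1 read 530 on E16 replicate 1, with the next array at 440. Twist1 read 70.3 on E16 replicate 2, just above the floor, with the next array at 23.3. Pax3 and Gbx2 had no such array at E16.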

How the results depend on the processing

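Each of 72 results was recomputed under alternative settings, 1145 values in all, of which 1036 counted as unchanged. For a tested change this meant the same direction and call, and for an F-test the same call. A count had to stay within a set factor, and a percentage left within the SD of its stage. The E9.5 to E12 changes of Pax3, Tfap2b and Gbx2 had to keep their direction and move less than the fitted spread between arrays. The fall of Pax3 from E9.5 to E12 stayed between -2.56 and -2.30 on the log2 scale. The size for the others followed the floor: for Tfap2b -4.05 with the floor at the 10th percentile, -2.10 at the 40th and -3.39 with log2(value + 32), and for Gbx2 -1.75 at the 40th and -2.21 with log2(value + 32). Tfap2b could not be fitted without any 1 of its E9.5 arrays, nor where 10 arrays had to be above the floor, because it then fails the filter. Over the nerve stages, the limma adjusted p of Pax3 was 0.00864 to 0.267 when arrays were left out singly and 5.94e-05 with array weights, and that of Tfap2b was 0.0296 with log2(value + 32). From E12 to P0, Pax3 passed with the floor at the 40th percentile (-0.54) and with array weights (-1.02), and Tfap2b with log2(value + 32) (-0.81); the cause was not tested.

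Signs of changes that were not called turned for Gbx2. From E12 to P0 its log2 change was -0.072 with the GAPDH ratio as a covariate, -0.047 without the lot 1 arrays of E16 and P0, and -0.047 to 0.31 without single arrays. From E12 to E14 it was -0.024 with the replicate block, -0.019 with lot as a block, -0.15 with the GAPDH ratio and -0.053 to 0.11 without single arrays. Without the lot 1 arrays it was -0.11 from E14 to E16, 0.057 from E16 to E18 and -0.031 from E18 to P0; without single arrays the first ran from -0.036 to 0.25 and the last from -0.031 to 0.32. For Pax3, the floor at the 40th percentile gave 0.070 from E16 to E18 and -0.032 from E18 to P0.

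Other crest genes lower at E12 numbered 2 with the floor at the 10th percentile and 2 to 4 without single arrays. Those higher numbered 4 with the GAPDH ratio, 3 with array weights and 3 without the lot 1 arrays. Array weights called 3039 probe sets from E9.5 to E12, 2911 from E12 to P0 and 5298 over the nerve stages. Without single arrays the counts were 958 to 1269, 1052 to 2793 and 859 to 2361. Replicate numbers did not pair the arrays: same-numbered arrays had a mean correlation of 0.02 over 38 pairs, and 6 of 19 correlated best with their own number. With the replicate block 1498 probe sets were called from E9.5 to E12, against 1469 without it.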
